A study of Homo sapiens with 6 samples.

Results

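The promoters described here are those of 55 developmental patterning genes outside the HOX clusters: the homeobox families Engrailed, OTX, EMX, DLX, MSX, PITX, LIM, Iroquois, TLX, MEIS, GSC, VAX, BARX and POU, and the paired-box (PAX) genes. They were found among the promoter windows by gene symbol. A promoter window was found for 54 of the 55 genes, of 19957 windows in all, and LHX2 was not matched to one. The libraries came from MRC5, an established line of wild-type human fibroblasts from lung, with no treatment given in the labels. NuMA, also labelled TDIF, is a large nuclear protein that organises mitotic spindle poles. Its ChIP had 2 libraries, ChIP with immunoglobulin G (IgG), the control for unspecific pull-down, had 2, and input chromatin was sequenced in 1 library for the NuMA arm and 1 for the IgG arm. The labels do not say whether replicates came from separate cultures, so p-values measure the spread between these libraries, which may be technical.

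Homeodomain proteins bind DNA through a helix-turn-helix fold, and PAX proteins through a paired domain that some of them combine with a homeodomain. They set body axes, brain regions, limb fields and neuron classes in the embryo. In most differentiated cells their CpG-rich promoters are held silent by Polycomb complexes, which mark the surrounding chromatin with trimethylated lysine on histone H3. A ChIP count at such a promoter reports recovered DNA, not transcription of the gene.

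The sequences of 6 member promoters show the range of base composition met at these windows. POU3F1, IRX1 and EN2 had the 3 highest fold changes of NuMA ChIP over IgG ChIP among all members, TLX3 passed with an AT-richer promoter, LHX8 was the member that passed as lower, and OTX2 did not pass. Each runs from 250 bases before to 50 bases after the RefSeq start (GRCh38.p14, the hg38 build of the counts), read 5′ to 3′ along the gene's strand, with every CG dinucleotide in capitals. The POU3F1 promoter lies at chr1:38046744-38047043 on the minus strand, IRX1 at chr5:3595582-3595881 on the plus strand, and EN2 at chr7:155457879-155458178 on the plus strand. TLX3 lies at chr5:171308998-171309297 on the plus strand, LHX8 at chr1:75128184-75128483 on the plus strand, and OTX2 at chr14:56810430-56810729 on the minus strand.
POU3F1: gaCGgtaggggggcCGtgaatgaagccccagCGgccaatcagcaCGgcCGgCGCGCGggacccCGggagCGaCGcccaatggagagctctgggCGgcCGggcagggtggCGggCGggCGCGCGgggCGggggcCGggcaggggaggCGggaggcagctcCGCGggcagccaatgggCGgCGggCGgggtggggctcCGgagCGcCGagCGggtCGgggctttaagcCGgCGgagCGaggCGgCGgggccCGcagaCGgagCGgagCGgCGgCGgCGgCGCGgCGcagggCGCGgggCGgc
IRX1: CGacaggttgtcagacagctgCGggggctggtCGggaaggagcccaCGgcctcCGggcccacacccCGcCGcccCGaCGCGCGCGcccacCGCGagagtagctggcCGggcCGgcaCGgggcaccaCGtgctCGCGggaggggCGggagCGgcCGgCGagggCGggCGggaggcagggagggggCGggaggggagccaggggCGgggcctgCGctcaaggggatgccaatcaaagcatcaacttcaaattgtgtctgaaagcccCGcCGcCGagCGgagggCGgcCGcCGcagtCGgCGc
EN2: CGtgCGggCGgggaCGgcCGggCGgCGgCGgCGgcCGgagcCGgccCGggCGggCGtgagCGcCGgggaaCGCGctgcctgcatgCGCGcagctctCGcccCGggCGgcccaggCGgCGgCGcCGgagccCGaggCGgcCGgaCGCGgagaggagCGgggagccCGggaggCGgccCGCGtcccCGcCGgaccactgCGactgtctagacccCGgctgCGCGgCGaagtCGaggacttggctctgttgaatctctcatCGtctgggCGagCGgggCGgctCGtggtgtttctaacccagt
TLX3: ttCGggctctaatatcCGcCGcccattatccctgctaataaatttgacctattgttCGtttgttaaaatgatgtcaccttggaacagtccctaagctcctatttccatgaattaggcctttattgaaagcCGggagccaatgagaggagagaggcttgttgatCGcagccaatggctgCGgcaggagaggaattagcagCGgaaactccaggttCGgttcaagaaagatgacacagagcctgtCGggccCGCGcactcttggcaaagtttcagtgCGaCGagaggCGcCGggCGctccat
LHX8: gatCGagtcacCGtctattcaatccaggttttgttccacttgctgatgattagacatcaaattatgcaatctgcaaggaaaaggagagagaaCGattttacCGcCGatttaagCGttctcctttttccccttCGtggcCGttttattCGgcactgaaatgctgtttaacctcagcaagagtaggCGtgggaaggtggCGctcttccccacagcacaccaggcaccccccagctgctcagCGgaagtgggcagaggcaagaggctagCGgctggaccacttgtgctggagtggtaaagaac
OTX2: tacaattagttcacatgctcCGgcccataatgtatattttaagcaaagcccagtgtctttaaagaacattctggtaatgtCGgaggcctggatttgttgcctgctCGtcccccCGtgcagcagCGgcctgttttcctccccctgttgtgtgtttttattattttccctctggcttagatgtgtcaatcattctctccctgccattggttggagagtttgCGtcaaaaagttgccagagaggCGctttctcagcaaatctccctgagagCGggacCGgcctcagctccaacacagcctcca

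GC content was 82.3% in the POU3F1 promoter with 49 CG dinucleotides, 76% in IRX1 with 38, and 78% in EN2 with 50. It was 51.3% in both TLX3 and LHX8, with 17 and 13 CG dinucleotides, and 49.7% in OTX2, with 9. RefSeq promoter sequences were matched to 37 member windows, whose median GC content was 67.7% and median CG count 28, against 63.3% and 23 over 12673 windows with a sequence. CCGCCC, the core of the GC box bound by SP factors, occurred on either strand in 23 of the 37 (62.2%), against 61.7% of the 12673. TATAAA occurred in 3 (8.11%, against 9.23%) and TAATTA, a homeodomain core motif, in 2 (5.41%, against 2.94%). Among the 17 of them that passed as higher with the NuMA antibody than with IgG the median GC content was 72.7%, and among the 18 that did not pass it was 64.3%. Tested windows with a promoter sequence were put in 5 groups ordered by GC content. The share that passed as higher went from 3.05% in the lowest group to 45.2% in the highest. The part of GC content in the members' values was not tested. A check of base composition over the set is void, because 37 of 54 members is below the 80% needed.

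Counts for each window, which spans 1000 bp on both sides of an annotated start, were set against the library's total promoter count as counts per 1000000 (CPM); fold changes also carry the scaling between libraries and so differ from ratios of CPM. All windows have the same length, so levels were not scaled by length. Windows that overlap another by more than 1000 bp, among them those of IRX2, TLX3 and PAX3, had lower counts. Their median was 2 counts in either input, against 42 (NuMA) and 45 (IgG) without overlap. Levels in such windows are not comparable with the others. Input levels still differed between genes, from 8.22 to 131.6 CPM among members in the NuMA input. Levels of different genes can therefore be compared only roughly. Totals ran from 366594 in IgG replicate 2 to 1080879 in NuMA replicate 1, so that 1 count is worth 0.925 to 2.73 CPM, and intervals on counts cover counting error only. Across windows, which are not replicates, the log2 levels of the NuMA libraries correlated at r = 0.88 and those of the IgG libraries at r = 0.56. Marker genes cannot check the cell type in these DNA libraries. Of 14 listed fibroblast markers 9 were tested. Of these 9, 1 passed as higher with the NuMA antibody than with IgG and 4 as lower, where 16.8% and 23.9% of all windows tested did so. Their median log2 fold change was -0.79. The counts were 1 higher and 4 lower of 9 for neuron markers, 1 and 1 of 6 for epithelial markers, 1 and 4 of 8 for blood markers, and 0 and 3 of 7 for endothelial markers.

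The members held a larger share of promoter counts in NuMA ChIP than in the other libraries. Their 54 windows are 0.271% of all windows, which include the overlapping windows with few counts. They took 0.805% of the counts in NuMA replicate 1 (95% Wilson interval 0.789 to 0.822) and 0.691% in replicate 2 (0.671 to 0.711). In IgG ChIP they took 0.482% (0.465 to 0.500) and 0.384% (0.365 to 0.405). The inputs gave 0.369% for the NuMA arm and 0.380% for the IgG arm. The NuMA mean, 0.748% ± 0.081 (SD, n = 2), was 1.73 times the IgG mean, 0.433% ± 0.069, and neither NuMA library overlapped any other. IgG replicate 1 lay above both inputs and IgG replicate 2 beside them. With 2 libraries against 2 an exact two-sided permutation test cannot go below p = 0.333.

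**Figure D1:**
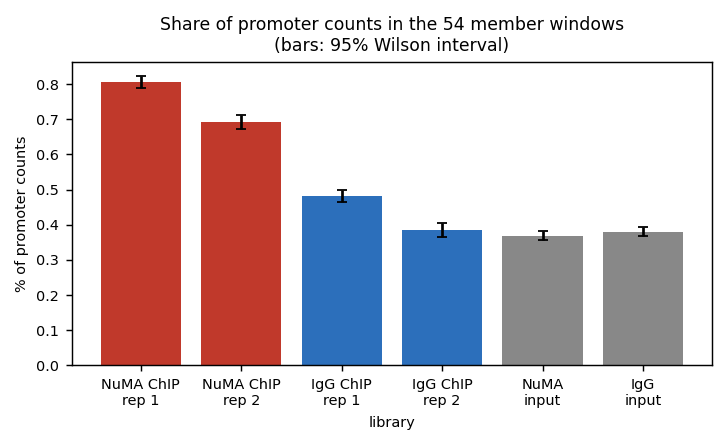
Share of all promoter counts that fell in the 54 member windows, in percent (y axis), for each of the 6 libraries (x axis). Bars are single libraries and whiskers are 95% Wilson intervals; the NuMA ChIP libraries stand at 0.805% and 0.691%, and the other 4 between 0.369% and 0.482%.

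The median member held 136.5 CPM in NuMA replicate 1 and 122.7 CPM in replicate 2, where the median of all windows was 22.2 and 31.6 CPM. In IgG ChIP the median member held 88.4 and 65.5 CPM, against 43.8 and 49.1 CPM over all windows. The inputs of the NuMA and IgG arms held 67.8 and 67.0 CPM, against 49.3 and 48.0 CPM. The members thus stood above the typical window in every library, and furthest in NuMA ChIP. Overlap with another window, which went with low counts, was met at 18.7% of all windows and at 3 of the 54 members. In the NuMA input the median member held 49.5 counts, against 42 in windows with no overlap. In the IgG input it held 53, against 45. The ChIP libraries were not compared in this way. Each NuMA library exceeded each IgG library at 33 of the 54 members, where 32% of all windows tested did so, and fell below each at 7, where 40.8% of windows did so.

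In the test of NuMA ChIP against IgG ChIP, in which a window passed at a p adjusted over all windows of under 0.05, 23 of 53 members tested were higher (43.4%), where 16.8% of 15727 windows were higher. A single member was lower, where 23.9% of windows were, and 29 did not pass. PAX3 had too few counts to be tested. The log2 fold change (edgeR, with TMM scaling between libraries) was above 0 for 46 of the 53, with a median of 1.05 (2.07-fold), against -0.04 over all windows. Scaled instead on the signal at the outer flanks of the summed start-site profile, 44 members were higher and 0 lower, where 48.1% of windows were higher and 2.73% lower. Of the 23 higher members, 22 had both NuMA libraries above both IgG libraries, and the exception was POU4F1. This count uses the libraries that gave the calls and is no separate evidence for them. The calls rested on few libraries: there were 5 higher members without NuMA replicate 1 (3.55% of windows), 5 without IgG replicate 2 (6.58%), 17 without IgG replicate 1 (14%) and 29 without NuMA replicate 2 (17.2%). LHX4 was the single member called under each of these 4 omissions, while the member median ranged from 0.76 to 1.49. With each ChIP set against its own input 2 members were higher, EMX1 (3.31, adjusted p = 0.0136) and IRX2 (3.11, 0.0369), with 1.16% of windows. Both values rest on low counts in the single NuMA input, 19 at EMX1 and 6 at IRX2, where the IgG input held 59 and 17. With a minimum of 30 counts 8 members were higher and 5 lower, with 8.56% and 20.2% of windows. The 5 were DLX3, DLX4, DLX5, OTX2 and TLX1, from -0.91 to -1.19. LHX8 then had too few counts to be tested.

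**Figure D2:**
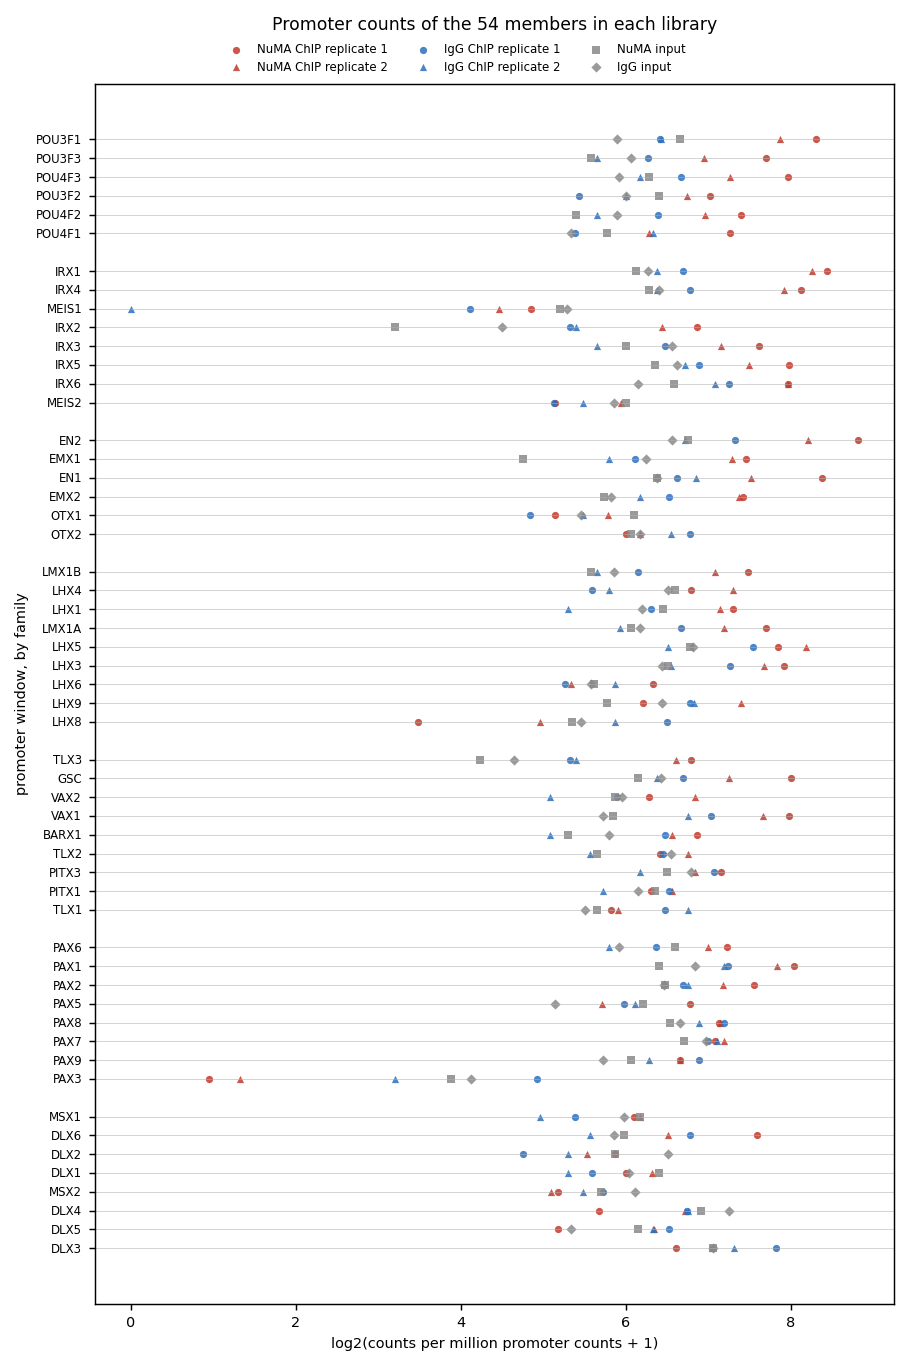
Level of each member in CPM, on a log2 scale after adding 1 (x axis), in every library, with the members (y axis) grouped by family and ordered by fold change within it. Red points are NuMA ChIP, blue points IgG ChIP and grey points inputs; for POU, IRX, EN and EMX genes the red points lie mostly to the right of the others, and for LHX8, PAX3, DLX3 and TLX1 to the left of the blue ones.

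The POU family (class 3 and class 4) was higher at all 6 of its members by edgeR's test with TMM scaling, with a median log2 fold change of 1.40. Class 3 genes drive neural and glial fates: POU3F1 (OCT6) acts in Schwann cells that are about to myelinate, and POU3F2 (BRN2) and POU3F3 (BRN1) act in cortical neurons. The class 4 genes (BRN3) specify sensory neurons, POU4F2 those of the retina and POU4F3 the hair cells of the inner ear. At POU3F1 (ENSG00000185668, chr1:38045795-38047795) the NuMA libraries held 315 and 233 CPM and the IgG libraries 84.4 and 84.6. Inputs are given as NuMA arm, then IgG arm, and were 100.04 and 58.1 CPM. The 2 NuMA values were both more than the highest of the other 4. The log2 fold change was 1.89 ± 0.55 (SE; adjusted p = 0.00504), or 3.71-fold.

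POU3F3 followed at 1.58 ± 0.46 (adjusted p = 0.00545), with 207 and 122 CPM in NuMA ChIP against 76.3 and 49.1 in IgG ChIP. Its window centre lay 2234 bp from the RefSeq start, so its symbol is less sure than the others. POU4F3 was higher by 1.42 ± 0.49 (adjusted p = 0.0183), POU3F2 by 1.37 ± 0.41 (0.00702) and POU4F2 by 1.30 ± 0.44 (0.0146). POU4F1 was higher by 1.21 ± 0.43 (adjusted p = 0.0201), although its libraries overlapped: NuMA ChIP held 153 and 76.8 CPM, and IgG ChIP 40.6 and 79.1. Its call was lost with total-count scaling (1.01, 0.0560) and with DESeq2 (1.24, 0.104). Without NuMA replicate 1 POU3F1 alone of the 6 passed, at 1.53, and POU4F1 stood at 0.47. All 6 passed without NuMA replicate 2, and 2 of 6 without either IgG library, POU3F3 and POU4F2 without replicate 1 and POU3F2 and POU4F1 without replicate 2.

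The Iroquois genes pattern heart, limb, lung and neural tissue and lie in 2 clusters of 3 genes, IRX4, IRX2 and IRX1 on chromosome 5 and IRX3, IRX5 and IRX6 on chromosome 16. Of these 6 genes 4 were higher in NuMA ChIP, and the median of the 6 was 2.83-fold. IRX1 (ENSG00000170549, chr5:3595053-3597053) had the highest fold change of all members. It held 345 and 304 CPM in NuMA ChIP, 102 and 81.8 in IgG ChIP, with inputs of 68.5 and 75.8. The groups did not overlap, and the difference was 1.99 ± 0.58 (adjusted p = 0.00536). IRX4, a regulator of ventricular muscle, held 277 and 239 CPM against 109 and 81.8, a difference of 1.61 ± 0.53 (adjusted p = 0.0134).

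At IRX2 (chr5:2750663-2752663), the middle gene of its cluster, levels were 116 and 85.8 CPM in NuMA ChIP, 38.9 and 40.9 in IgG ChIP, with inputs of 8.22 and 21.5. Its difference was 1.53 ± 0.41 (adjusted p = 0.00267). The window overlaps that of a divergent gene by 1534 bp, and how the authors assigned reads in shared sequence is not given in the sources used here. Windows that overlap another by more than 1000 bp held a median of 2 counts in either input, against 42 and 45 where there was no overlap. The divergent window, which carries no symbol here, gave 0.45 (adjusted p = 0.437).

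In the chromosome 16 cluster IRX3, which acts in heart conduction and hypothalamus, was higher by 1.47 ± 0.46 (adjusted p = 0.00938), with 195 and 142 CPM in NuMA ChIP against 87.6 and 49.1 in IgG ChIP. IRX5 (1.15, adjusted p = 0.0601) and IRX6 (0.97, 0.131) did not pass, though both NuMA libraries exceeded both IgG libraries at each. IRX6 held 249 and 248 CPM against 151 and 134. The windows of one cluster are far apart: IRX4 and IRX1 lie 864.4 and 844.4 kb from IRX2, and IRX3 and IRX6 lie 644.1 and 392.9 kb from IRX5. The next window beyond IRX6, which has no symbol here and lies 458.8 kb from IRX5, was lower by the same test, at -3.33 (adjusted p = 4.48e-05), and CAPNS2 beyond it stood at -1.71 (0.0353). LPCAT2 between them gave 0.48 (0.408). All 6 IRX genes passed without NuMA replicate 2, IRX1 and IRX4 without NuMA replicate 1, IRX2 and IRX3 without IgG replicate 1, and IRX2 alone without IgG replicate 2.

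**Figure D3:**
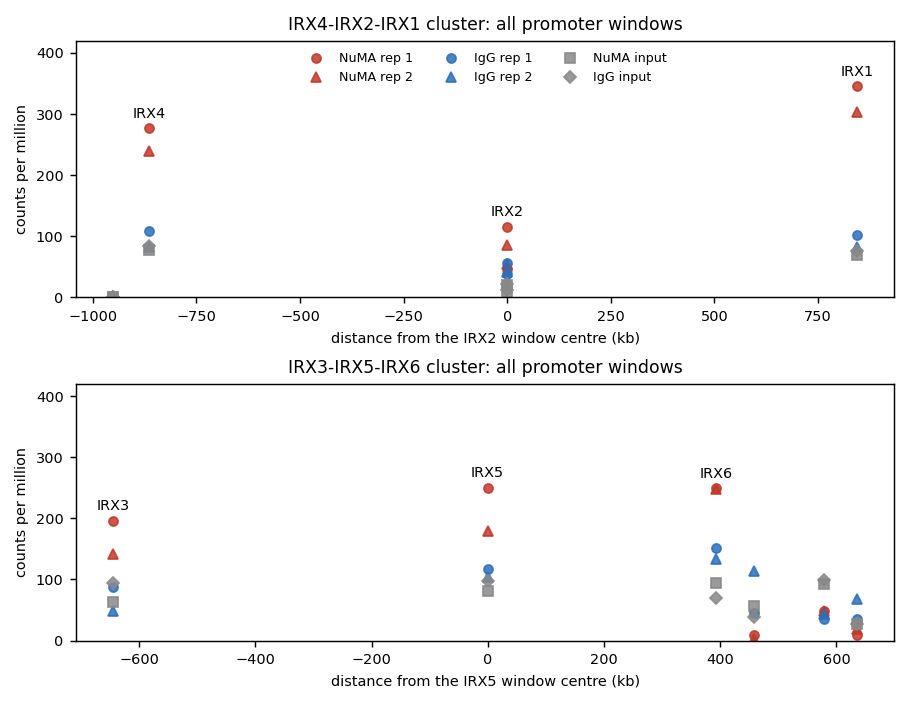
CPM (y axis) of every promoter window from 250 kb before to 250 kb after each Iroquois cluster, by distance in kb from the IRX2 window (top) and the IRX5 window (bottom). Red points are NuMA ChIP, blue IgG ChIP and grey inputs; the red points lie above the others at the 6 IRX windows, and below the blue ones at the window 458.8 kb from IRX5.

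MEIS1 and MEIS2, partners of HOX proteins, did not pass. MEIS1 gave 1.59 ± 0.88 (adjusted p = 0.131), from 27.8 and 21.1 CPM in NuMA ChIP and 16.2 CPM and a count of 0 in IgG ChIP, all below its inputs of 35.6 and 37.9 CPM. The count of 0 allows up to 3 counts in that library. Its window centre lay over 1000 bp from the RefSeq start. MEIS2 was the lowest of the family, at 0.42 (adjusted p = 0.489).

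Among the forebrain and midbrain regulators, both Engrailed and both EMX genes were higher, and both OTX genes did not pass. The Engrailed genes maintain the boundary of midbrain and hindbrain. EN2 (ENSG00000164778, chr7:155457128-155459128) had the highest level of any member in NuMA replicate 1, at 449 CPM, and 294 CPM in replicate 2. IgG ChIP held 159 and 104 CPM, with inputs of 107 and 93.5. EN1 held 330 and 182 CPM in NuMA ChIP against 97.4 and 115 in IgG ChIP, a difference of 1.49 ± 0.54 (adjusted p = 0.0239). The EN2 difference was 1.69 ± 0.62 (adjusted p = 0.0258), and the call was lost without NuMA replicate 1 (1.21, 0.0721), IgG replicate 1 (2.24, 0.166) or IgG replicate 2 (1.48, 0.330).

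EMX1 and EMX2 set up the cerebral cortex. EMX1 (chr2:72915259-72917259) held 175 and 155 CPM in NuMA ChIP, 68.2 and 54.6 in IgG ChIP, with inputs of 26.0 and 74.6. The NuMA libraries were close together and above the rest, at 1.59 ± 0.45 (adjusted p = 0.00421). Without IgG replicate 2 it missed the threshold (1.52, 0.0636). EMX2 was higher by 1.21 ± 0.46 (adjusted p = 0.0288), with 169 and 164 CPM against 90.9 and 70.9. OTX2, needed to form the anterior head, held 62.9 and 70.8 CPM in NuMA ChIP and 109 and 92.7 in IgG ChIP, and gave -0.43 (adjusted p = 0.358), or 0.85 (0.201) when scaled on the flank signal. OTX1 gave 0.48 (0.463). Without NuMA replicate 1, or without IgG replicate 1, EMX1 alone of the 6 passed. None passed without IgG replicate 2.

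LIM-homeodomain proteins bind DNA through the homeodomain and cofactors such as LDB1 through their LIM domains, and together specify motor neurons, interneurons and pituitary cells. Of 9 members tested 4 were higher, 1 was lower, and the median was 1.05. LMX1B, which patterns the dorsal limb and serotonin neurons, was higher by 1.56 ± 0.45 (adjusted p = 0.00461), with 177 and 134 CPM in NuMA ChIP against 69.8 and 49.1 in IgG ChIP. Its paralogue LMX1A, a regulator of dopamine neurons, was higher by 1.30 ± 0.47 (adjusted p = 0.0224), with 206 and 145 CPM against 101 and 60.0. LHX1, needed for head and kidney formation, was higher by 1.49 ± 0.44 (adjusted p = 0.00570), with 156 and 140 CPM against 77.9 and 38.2.

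LHX4, which acts in the pituitary, was higher by 1.54 ± 0.42 (adjusted p = 0.00306). It held 109 and 157 CPM in NuMA ChIP and 47.1 and 54.6 in IgG ChIP, but 95.9 and 89.7 CPM in the inputs. The IgG libraries were thus below the inputs and the NuMA libraries above them. With 1 library left out the difference ranged from 1.45 to 1.71 and passed each time. Its window centre lay 1910 bp from the 5′ end of the RefSeq gene that gave the symbol. The start of its RefSeq promoter sequence lay 21 bp from that centre. LHX5 had higher levels than these, 229 and 291 CPM against 185 and 90.0, and did not pass (1.05, adjusted p = 0.106). Without NuMA replicate 1 or IgG replicate 2, LHX4 was the single LIM gene that passed as higher.

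LHX8, which specifies cholinergic neurons of the forebrain, was the single member lower in NuMA ChIP. Its window (ENSG00000162624, chr1:75127433-75129433) held 11 and 20 counts in NuMA ChIP, 55 and 21 in IgG ChIP, with inputs of 29 and 34. As CPM these were 10.2 and 30.1 against 89.3 and 57.3, with inputs at 39.7 and 43.0. Both NuMA libraries lay below the inputs and both IgG libraries above them. The difference was -1.81 ± 0.51 (adjusted p = 0.00377). The call was lost without IgG replicate 1 (-1.20, 0.212), without NuMA replicate 1 (-1.24, 0.143), with DESeq2 (-1.76, 0.0543) or scaled on the flank signal (-0.56, 0.426).

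The PITX, GSC, TLX, VAX and BARX genes were mixed, with 3 of 9 higher and a median of 0.93. TLX3, which selects the excitatory fate in dorsal spinal neurons, was the highest of them. It held 109 and 96.4 CPM in NuMA ChIP, 38.9 and 40.9 in IgG ChIP, with inputs of 17.8 and 24.0, a difference of 1.55 ± 0.41 (adjusted p = 0.00234). Its window overlaps an opposite-strand window by 1474 bp. Without NuMA replicate 1 it missed the threshold (1.33, 0.0743). GSC, a regulator of the gastrula organiser, was higher by 1.34 ± 0.50 (adjusted p = 0.0265), with 254 and 151 CPM against 102 and 81.8.

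VAX2, which patterns the ventral retina, was higher by 1.15 ± 0.40 (adjusted p = 0.0186), with 76.8 and 113 CPM in NuMA ChIP against 58.4 and 32.7 in IgG ChIP. The call was lost with total-count scaling (0.996, 0.0544) and DESeq2 (1.21, 0.0967), and without NuMA replicate 1 (1.32, 0.0656), NuMA replicate 2 (1.04, 0.0913) or IgG replicate 2 (0.91, 0.154). Its paralogue VAX1 held more, 252 and 202 CPM against 130 and 106, and did not pass (1.12, adjusted p = 0.0713). TLX1, needed to form the spleen, was the lowest, at -0.58 (0.211; 0.74 and 0.263 on the flank signal), with 55.5 and 58.7 CPM in NuMA ChIP below 87.6 and 106 in IgG ChIP. None of the 9 passed without NuMA replicate 1, and TLX3 alone passed without IgG replicate 2. Near TLX2 lies the window of PCGF1, a Polycomb gene outside the list counted below, on the opposite strand 4881 bp away. It was lower at -2.79 (adjusted p = 0.0141), where TLX2 itself gave 0.65 (0.173).

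The PAX genes were closer to IgG ChIP. PAX6, which controls eye and forebrain development, was higher by 1.18 ± 0.43 (adjusted p = 0.0230), with 148 and 126 CPM in NuMA ChIP against 81.1 and 54.6 in IgG ChIP. The other 6 tested did not pass, and ranged from 0.20 at PAX9, a regulator of teeth and thymus, to 0.91 at PAX1, a regulator of the vertebral column. The median of the 7 was 0.54. PAX1 held 261 and 227 CPM against 149 and 145, so its groups did not overlap, at an adjusted p of 0.157. At PAX7 and PAX8 the levels were similar in the 2 ChIPs, 134 and 145 against 127 and 136 CPM, and 139 and 140 against 144 and 117 CPM (adjusted p = 0.665 and 0.659). The PAX6 call was lost without NuMA replicate 1 (0.93, 0.166), without IgG replicate 2 (1.01, 0.175) and with DESeq2 (1.23, 0.0541).

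PAX3, which acts in neural crest and muscle precursors, stood apart with 1 count in each NuMA library. IgG ChIP held 18 and 3 counts, with inputs of 10 and 13. Its window overlaps that of an opposite-strand gene by 1150 bp. That neighbouring window held 20 and 8 counts in NuMA ChIP and 12 and 7 in IgG ChIP, and gave -0.12 (adjusted p = 0.914).

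The DLX and MSX genes, which pattern the jaws, limbs and ventral forebrain, had the lowest median of the 7 families, 0.28. MSX1, a regulator of tooth and palate, was the 1 of 8 that was higher, by 1.11 ± 0.44 (adjusted p = 0.0353). It held 67.5 and 70.8 CPM in NuMA ChIP and 40.6 and 30.01 in IgG ChIP, with inputs of 71.3 and 61.9. The NuMA libraries were thus level with the inputs, and the IgG libraries below them. The call was lost without NuMA replicate 1 (1.04, 0.238), NuMA replicate 2 (1.25, 0.0668) or IgG replicate 2 (1.01, 0.135), with DESeq2 (1.17, 0.143) and with total-count scaling (0.94, 0.0943).

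DLX3, which acts in placenta, hair and teeth, was the lowest of its family, at -0.61 (adjusted p = 0.282; 0.65 and 0.458 on the flank signal). It held 96.2 and 131 CPM in NuMA ChIP and 226 and 158 in IgG ChIP. DLX genes lie in 3 convergent pairs 18.2 to 26.3 kb apart. DLX1 and DLX2 gave 0.87 and 0.90, DLX6 and DLX5 gave 1.04 and -0.47, and DLX4 and DLX3 gave -0.35 and -0.61; none of these 6 passed. DLX6 held 191 and 90.3 CPM against 109 and 46.4, so that a library of each group lay between those of the other.

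**Figure D4:**
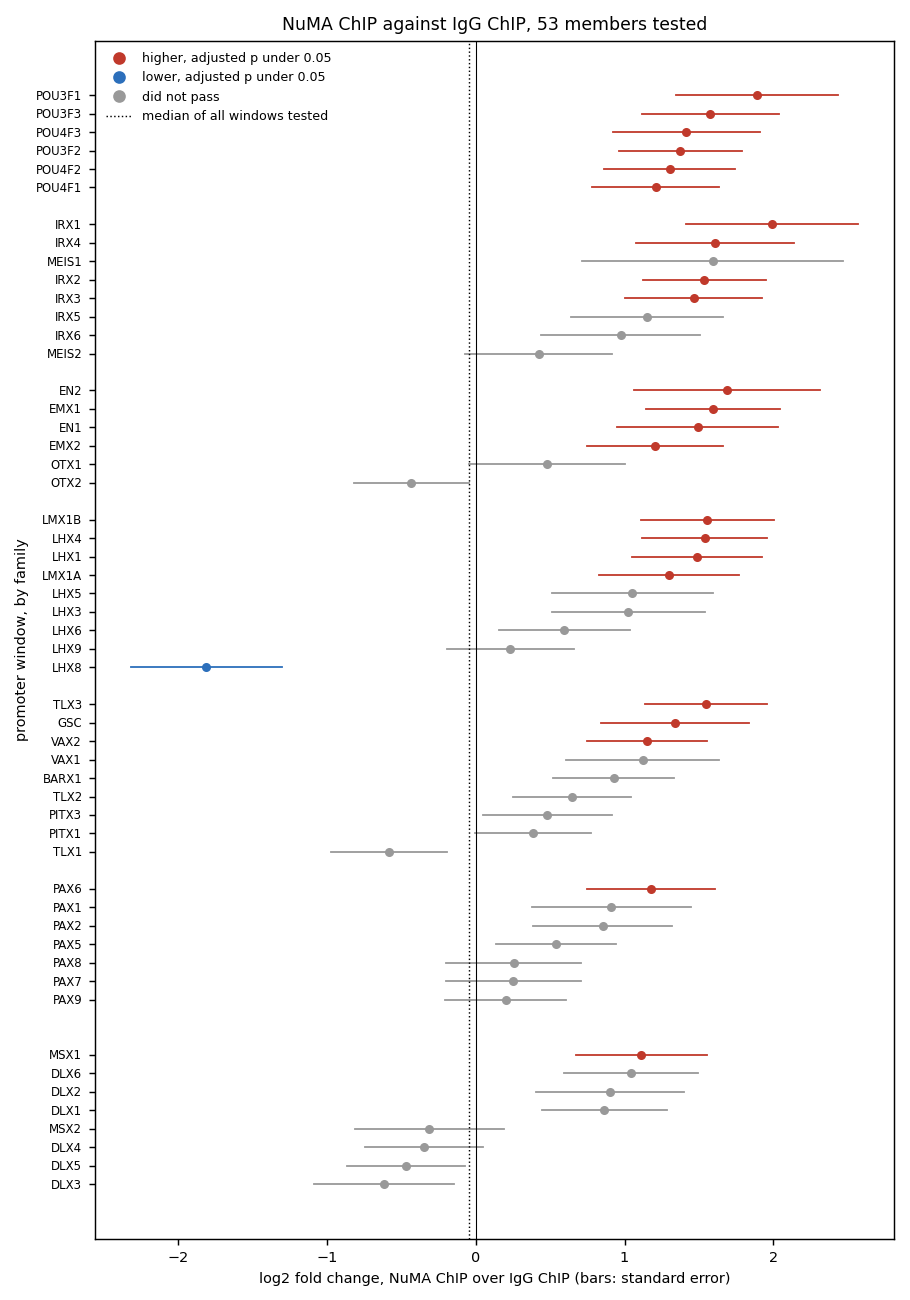
Log2 fold change of NuMA ChIP over IgG ChIP (x axis) with its standard error (bars) for the 53 members tested, by family (y axis). Red points passed as higher, the blue point (LHX8) passed as lower and grey points did not pass; the dotted line is the median of all windows tested, -0.04, and 46 of the 53 points lie above 0.

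Against input chromatin, 33 of the 54 members were higher in NuMA ChIP (61.1%), where 17.2% of 17226 windows were higher. No member was lower, where 11.9% of windows were, and none had an unadjusted p under 0.05 in that direction with edgeR or an adjusted one with DESeq2. The median log2 fold change was 1.35, against 0.03 over all windows. This comparison uses the same NuMA libraries as the one with IgG, so the 2 are not independent. Each NuMA library exceeded each input at 36 of 54 members, where 24.8% of windows did so. With total-count scaling 26 members were higher and 0 lower, where 10.8% of windows were higher and 19.2% lower; on the flank signal 20 were higher, where 10.8% were higher and 3.97% lower. Without NuMA replicate 1 there were 20 higher members (7.95% of windows), and against the IgG input alone 20 (7.59%).

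All 6 IRX genes were higher than the inputs, with a median of 2.11. IRX2 had the highest value of the members, 3.38 ± 0.49 (adjusted p = 8.85e-09), from input counts of 6 and 17 in the overlapping window described above. TLX3 followed with 2.77 ± 0.45 (5.03e-07) and IRX1 with 2.63 ± 0.58 (1.73e-04). The TLX3 value also came from low input counts, 13 and 19, in a window that overlaps another by 1474 bp. VAX1 was higher by 2.53 ± 0.53 (7.71e-05), EN2 by 2.37 ± 0.62 (0.00170) and EMX1 by 2.36 ± 0.46 (2.50e-05). All 6 POU genes were higher, from 1.15 at POU3F2 to 2.31 at POU3F1.

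The 12 members that passed against the inputs but not against IgG ChIP came from 5 families. No share over all windows is given for this split, so it cannot be called particular to the members. IRX6 was higher than the inputs by 2.07 and IRX5 by 1.75. LHX3, a pituitary and motor neuron regulator, was higher by 1.79, LHX5 by 1.68 and LHX9, a gonad regulator, by 1.23. The PAX genes PAX1 (1.78), PAX2 (1.38), PAX9 (1.23) and PAX5 (1.18) were higher, with PAX6 at 1.32 as the fifth of the family. PAX2 acts in kidney and PAX5 in B cells. VAX1, DLX6 (1.74) and BARX1 (1.66), a regulator of teeth and stomach, completed the 12. LHX4 (0.95, adjusted p = 0.0758) and MSX1 (0.51, 0.368) passed against IgG ChIP and not against the inputs. A call in one comparison and not in the other does not show that the 2 differ, which was not tested.

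Of the 33, 16 passed in each of the 9 alternative settings, among them IRX1, IRX2, IRX4, IRX6, EN1, EN2, EMX1, EMX2, TLX3 and VAX1. This count has no share over all windows beside it, so such stability cannot be called particular to the members. VAX2 (1.11, adjusted p = 0.0279) passed in none of the 9. Leaving out NuMA replicate 1 gave 0.82 at DLX6, 0.95 at POU4F1 and 0.25 at PAX5, none of which then passed.

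IgG ChIP against the inputs gave 0 higher and 0 lower members of 54, where 0.238% and 0.0639% of windows passed with edgeR. At an unadjusted p under 0.05, 6 members were above the inputs (IRX2, LHX8, PAX9, TLX1, TLX3 and VAX1) and 2 below (DLX2 and MEIS1), 11% and 4.81% of all windows. DESeq2 also gave 0. The member median was 0.45, against 0.13 over all windows. Values ran from -1.81 at MEIS1 to 1.69 at IRX2 (adjusted p = 0.0996). Of the 7 members with both NuMA libraries below both IgG libraries, DLX3 (0.69), LHX8 (0.98), OTX2 (0.70) and TLX1 (1.16) had both IgG libraries above both inputs, DLX4 (-0.22) had both below, and MSX2 (-0.16) and PAX3 (0.51) had neither. Both IgG libraries exceeded both inputs at 20 of the 54 members, where 25.5% of windows did so. IgG ChIP is shared with the first comparison.

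**Figure D5:**
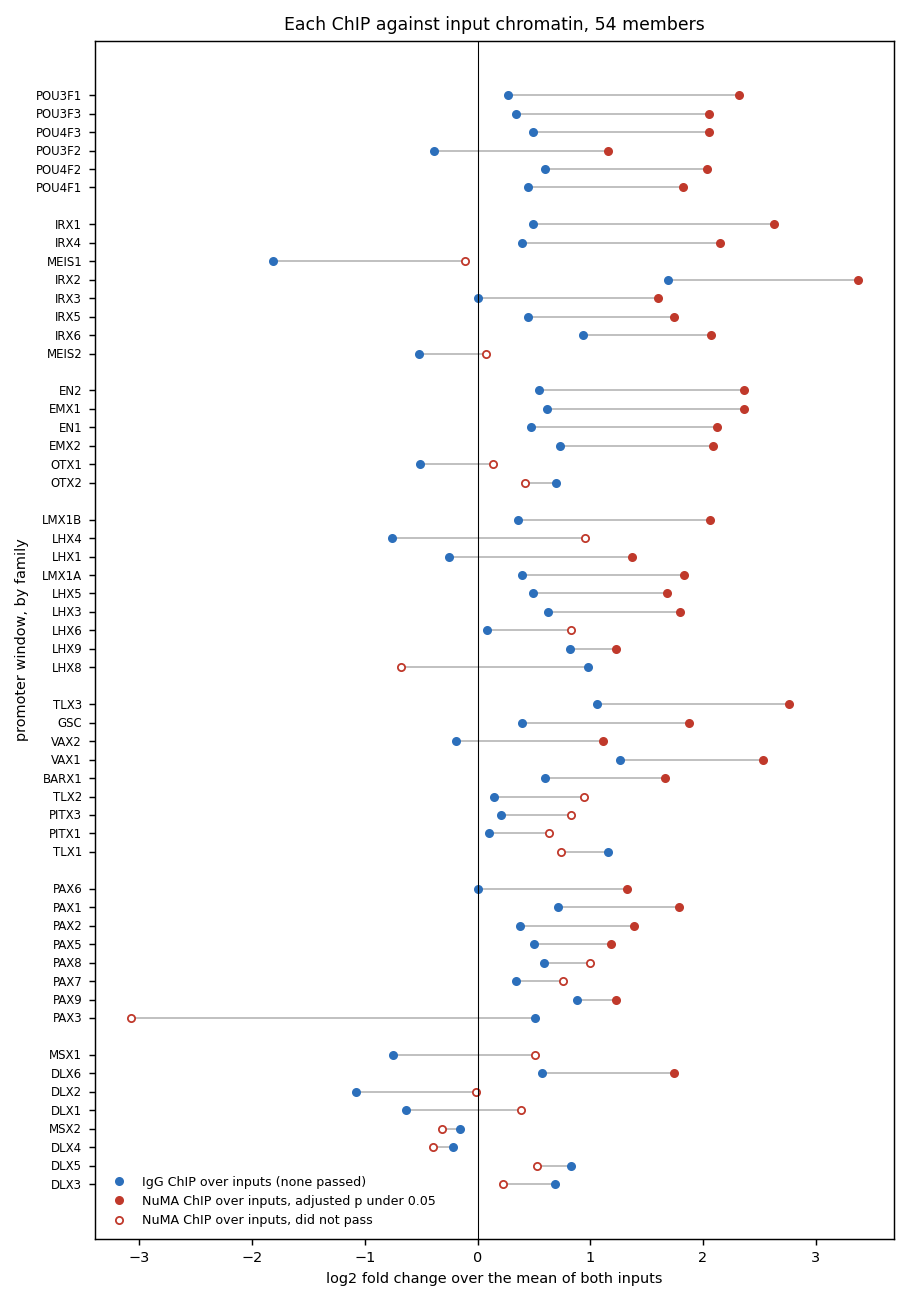
Log2 fold change over the mean of both inputs (x axis) for NuMA ChIP (red) and IgG ChIP (blue) at the 54 members, by family (y axis), with a grey line between the values of each member. Filled red points passed the test, open red points and all blue points did not; 33 of the red points are filled.

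Other genes of the same system were counted beside the members, with no test between the lists; over all windows 16.8% were higher and 23.9% lower against IgG ChIP, and 17.2% and 11.9% against the inputs. Of 20 cofactors tested, 8 were higher and 4 lower in NuMA ChIP against IgG ChIP, with a median of 0.64, and 3 were higher and 3 lower against the inputs, with a median of 0.39. The range went from -2.68 ± 0.71 at LMO3, which binds LIM cofactors, to 1.96 ± 0.48 at PBX3, a partner of HOX and MEIS proteins. Of 16 listed Polycomb group genes, whose products silence developmental genes, 6 were higher and 1 was lower, EED at -1.60 (adjusted p = 0.0428). Their median was 0.84, and the highest value, 1.51 at JARID2, did not pass (0.0570). Against the inputs 3 of the 16 were higher and 0 lower, with a median of 0.47. Of 28 other homeobox genes 8 were higher and 2 lower, with a median of 0.35, and against the inputs 11 were higher and 0 lower, with a median of 0.61. The highest against IgG ChIP was ALX4, a craniofacial regulator, at 2.16 ± 0.43.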

How the data were processed

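The authors deposited a raw count per promoter window for each library; the start-site profile they deposited, a signal summed over genes and unscaled, served only as an alternative scaling (its outer 500 positions on each side). BWA 0.7.17-r1188, MACS2, featureCounts, bedtools and hg38 appear, without roles, in the submitters' processing notes. How read pairs and overlapping windows were counted is not given in the sources used here.

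Windows were named by position, from the closest 5′ end of a RefSeq coding gene on the same strand within 2500 bp, which gave symbols to 16920 of 19957 (84.8%). Members matched within 1000 bp in 51 cases, at a median distance over all members of 31.5 bp; after a shift of 20000 bp, 3.88% of windows still matched within 1000 bp. The members and lists were chosen with earlier results of these data known. Every member that passed against IgG was named, with the highest and lowest of each family or list, except 1 gene that is not reported here.

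The main test was edgeR's quasi-likelihood F-test (version 4.0.16, R 4.3.3) with filterByExpr at a minimum count of 10, TMM scaling and Benjamini-Hochberg adjustment over all windows at 0.05. NuMA against IgG took the 4 ChIP libraries. Comparisons with the inputs took all 6 libraries and the mean of both inputs, a lone input being assumed to vary like a ChIP group. Both designs leave 2 residual degrees of freedom. Standard errors are the log2 fold change over the square root of F. Promoter counts totalled 1080879 and 664234 (NuMA), 616242 and 366594 (IgG), 729744 (NuMA input) and 791361 (IgG input). Scripts were tested on simulated data. Alternatives were DESeq2 1.42.0, total-count and flank scaling, no filter or at least 30 counts, single libraries left out (the lone sample then assumed to vary like the other groups), a replicate block, other inputs, overlapping windows left out and, chosen after seeing the data, another TMM reference. The exon metagene was not used.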

Additional observations from a re-analysis of the deposited data

How the results depend on the processing

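NuMA against IgG, members higher and lower: 44 and 0 with flank-signal scaling (median 2.28; all windows 7561 and 429), 23 and 0 with DESeq2 (all windows 1634 and 2117), 8 and 5 with a minimum of 30 counts (median 0.52; all windows 772 and 1819), and 2 and 0 with each ChIP relative to its own input (all windows 199 and 405). Flank-signal scaling moved the median of all windows by 1.30 and turned DLX3 to 0.65, OTX2 to 0.85 and TLX1 to 0.74; the minimum of 30 counts turned MEIS2 to -0.15 and PAX9 to -0.39. The cause was not tested. With 1 library left out, members higher ranged from 5 to 29 and lower from 0 to 1, the median from 0.76 to 1.49, all windows higher from 596 to 2875 and lower from 1445 to 2906. Total-count scaling (21 and 1; all-window median moved by -0.16), no filter (23 and 1), another TMM reference (27 and 1) and overlapping windows left out (21 and 1) gave counts within 1.5 times the reported ones.

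NuMA against inputs: total-count scaling gave 26 members higher, a median of 0.89 and 1852 and 3313 windows higher and lower, with the all-window median moved by -0.44. Flank-signal scaling gave 20 members, 1.66 and 1861 and 684 windows, DESeq2 25 members and 1876 and 619 windows, no filter a median of 1.17, and a minimum of 30 counts a median of 1.05 and 3261 windows lower. The NuMA input alone gave 1865 and 1314 windows, and the IgG input alone 20 members and 1307 and 1177 windows. With a NuMA library left out members higher ranged from 20 to 32 and lower were 0, the median ranged from 0.97 to 1.59, and windows from 1365 to 3182 higher and 956 to 1824 lower.

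IgG against inputs, all windows higher and lower: 0 and 0 with total-count scaling, DESeq2 and either input alone; 8 and 820 with flank-signal scaling, where DLX2 and MEIS1 were the 2 lower members and the member median turned to -0.40; 25 lower with no filter; 69 and 27 with a minimum of 30 counts. With an IgG library left out they ranged from 2 to 334 and from 0 to 63, with 0 members higher, 0 to 1 lower (MEIS1 without IgG replicate 1) and a median of 0.11 to 0.64. Without overlapping windows the member share of NuMA replicate 1 was 0.783%.

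With the replicate block, 32 members were higher and 1 lower, where 21.9% of all windows were higher and 26.5% lower. Each of the 24 called members passed, in a fit with fewer residual degrees of freedom than the main test. The replicate numbers are shared between groups only as numbers (correlation of same-numbered deviations 0.18 over 15727 windows). A count of 1 is worth up to 2.73 CPM, which limits windows such as PAX3, MEIS1 and LHX8. None of the 24 passed in all of the up to 13 alternatives, a count with no share over all windows beside it.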
